A study of Mus musculus with 18 samples.

Results

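The 42 genes described here are type I interferon-stimulated genes: antiviral effectors, RNA sensors and regulators whose transcription follows binding of interferon alpha or beta to its receptor. They were taken by gene name from the deposited tables of liver expression, which list 55385 genes, and each of the 42 names matched 1 row. All 42 passed the low count filter that left 15208 genes for testing. Polyadenylated RNA from 18 livers was sequenced with a strand-specific library. The 6 Dp16-2xIFNRs livers come from mice whose dosage of the interferon receptor genes was normalized, and the 6 Dp16 livers from mice with the full extra dosage. The 6 wild-type livers come from C57BL/6J mice. Dp16 and Dp16-2xIFNRs mice share the duplication of a chromosome 16 interval, Lipi through Zbtb21 (GRCm38, chr16:75540514-97962622), which they carry in every cell and which matches much of human chromosome 21. Every group held 3 females and 3 males aged 17.1 to 18 weeks, and no treatment is listed. The labels give each library a sample number, a sex and an age, and nothing that is named as an animal number, so p-values measure the spread between these samples. A further number ends each sample description, and its meaning is not stated. Of the 18 libraries, 11 share it with another, as 5 numbers that each join different genotypes and a single sex. None of the 42 genes lies in the duplicated interval. Rtp4, Parp9, Parp14 and Dtx3l are on chromosome 16 outside it.

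Type I interferons bind a receptor built from Ifnar1 and Ifnar2, which activates the kinases Jak1 and Tyk2. These phosphorylate transcription factors, among them Stat2, which joins Irf9 in a complex that binds the interferon-stimulated response element in the promoters of the target genes. In liver, hepatocytes and the resident macrophages, the Kupffer cells, both answer to interferon, and a low tonic signal keeps part of the programme on without infection.

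Promoter windows show which of the genes carry the core of that element near the annotated start. RefSeq windows of 250 bases before to 50 after the start (GRCm38.p6) were found for 34 of the 42 genes, and Parp14, Dhx58, Rtp4, Oas2, Ly6e, Parp9, Zbp1 and Oas1b had none. The core, GAAA followed by any 2 bases and a second GAAA and read on both strands, was in the window of 16 of the 34 genes (47.1%) and of 1079 of 27025 genes in the whole table (3.99%). The core of the gamma-activated sequence, TTCNNNGAA, which reads the same on both strands and can overlap the first motif, was in 7 of the 34 genes (20.6%) and in 9.55% of all genes. A match of letters is a description and not a binding site. Of 16 genes with the response element core, 8 that are named in a comparison of genotype or sex are printed, so that the values given for them can be read beside the sequence. Capitals mark the core, which reads TTTC, any 2 bases and TTTC where it lies on the opposite strand, and the sequences run in the direction of the gene. Isg15 (chr4:156200819-156201018, minus strand), Bst2 (chr8:71537473-71537672, minus strand), Ifit3 (chr19:34583329-34583528, plus strand), Ifit3b (chr19:34607757-34607956, plus strand), Oas1a (chr5:120907526-120907725, minus strand) and Trim30a (chr7:104465194-104465393, minus strand) are given for the 200 bases before the start. Ifih1 (chr2:62646206-62646235, minus strand) and Ifitm3 (chr7:141010714-141010743, minus strand) are given as 30 bases after the start.
Isg15: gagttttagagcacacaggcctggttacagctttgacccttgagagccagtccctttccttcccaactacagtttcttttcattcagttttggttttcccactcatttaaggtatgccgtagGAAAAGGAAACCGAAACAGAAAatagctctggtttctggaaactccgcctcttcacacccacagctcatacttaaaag
Bst2: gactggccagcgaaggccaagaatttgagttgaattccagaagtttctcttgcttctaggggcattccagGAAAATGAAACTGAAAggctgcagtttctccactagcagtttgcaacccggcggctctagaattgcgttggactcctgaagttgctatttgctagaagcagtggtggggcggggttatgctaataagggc
Ifit3: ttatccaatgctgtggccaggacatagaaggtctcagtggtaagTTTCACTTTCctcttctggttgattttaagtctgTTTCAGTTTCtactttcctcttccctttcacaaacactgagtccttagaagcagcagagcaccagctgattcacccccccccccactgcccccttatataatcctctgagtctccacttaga
Ifit3b: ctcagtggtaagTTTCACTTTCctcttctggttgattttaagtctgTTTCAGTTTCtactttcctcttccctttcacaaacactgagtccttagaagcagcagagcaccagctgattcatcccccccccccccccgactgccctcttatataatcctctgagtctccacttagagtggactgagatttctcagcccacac
Oas1a: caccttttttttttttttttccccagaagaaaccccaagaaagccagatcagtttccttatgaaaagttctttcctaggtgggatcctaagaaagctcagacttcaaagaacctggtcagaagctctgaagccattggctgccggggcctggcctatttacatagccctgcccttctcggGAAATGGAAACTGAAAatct
Trim30a: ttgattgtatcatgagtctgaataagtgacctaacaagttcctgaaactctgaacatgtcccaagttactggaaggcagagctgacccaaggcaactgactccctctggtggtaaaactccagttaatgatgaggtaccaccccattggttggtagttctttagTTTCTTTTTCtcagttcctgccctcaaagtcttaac
Ifih1: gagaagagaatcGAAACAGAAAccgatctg
Ifitm3: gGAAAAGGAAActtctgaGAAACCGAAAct
Isg15 had 3 overlapping cores between bases -78 and -57, and Bst2 had 2 between -130 and -115. In Oas1a the 2 cores lay between bases -20 and -5. Ifit3 and Ifit3b, neighbouring paralogs on chromosome 19, shared 166 of 168 aligned bases (98.8%) of the printed stretches, including both cores. In Ifih1, Ifitm3, Trim21, Eif2ak2, Ddx58 and Shisa5 the core lay after the annotated start, within the first 42 bases. For Shisa5, which had several windows, this held for a single window and the others had no core. A further window of Trim30a, not printed, held a core at bases 3 to 12 after its start.

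**Figure D1:**
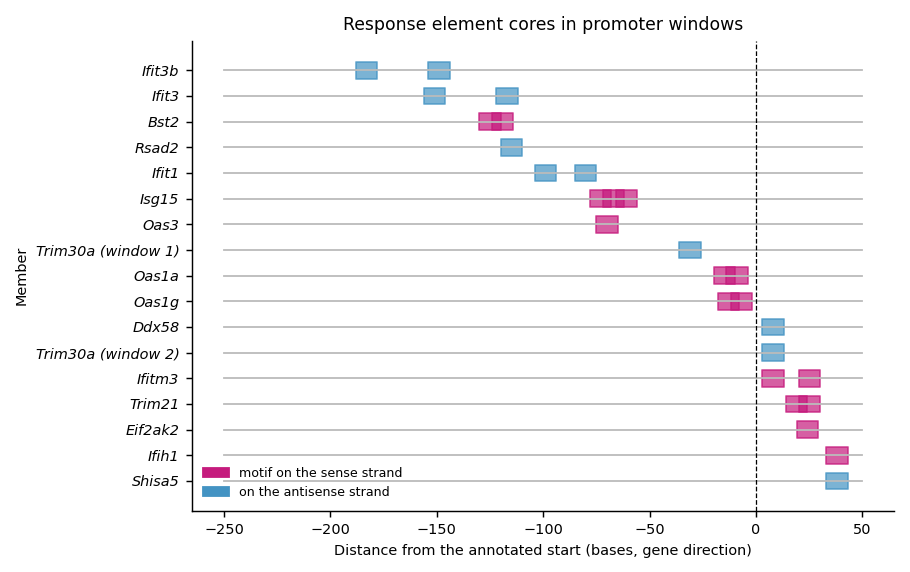
Position of each response element core in the windows that hold one (distance from the annotated start in bases, gene direction; pink for the sense and blue for the antisense strand). The cores of Isg15, Bst2, Oas1a, Ifit1, Ifit3 and Ifit3b lie before the start, and those of Ifih1 and Ifitm3 lie within 42 bases after it.

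Levels differed widely among the 42 genes, and 3 small membrane proteins stood at the top. RPKM, which scales counts to gene length and library total, allows genes to be set side by side. Ifitm3, which blocks fusion of viruses in endosomes, had a mean of 667 RPKM in wild-type livers and was the 101st gene of the whole table. Ly6e, a lipid-anchored surface protein that restricts viral entry, had 172 RPKM and Bst2, the tetherin that holds budding virions on the cell, had 149 RPKM. The next gene, the secreted galectin-binding glycoprotein Lgals3bp, had 34.7 RPKM.

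Most genes lay between 1 and 22 RPKM in wild-type livers. The transcription factor Irf7, which amplifies interferon transcription, averaged 21.9 RPKM, and Ifi35, a partner of Nmi, averaged 19.5 RPKM. Isg15, the ubiquitin-like modifier, averaged 17.9 RPKM, against 2.63 RPKM for its activating enzyme Uba7 and 1.44 RPKM for Herc6, which serves as its ligase in mice. Shisa5, an endoplasmic reticulum protein linked to apoptosis, averaged 17.2 RPKM. Among the RNA sensors, Ifih1 (MDA5) averaged 5.27 RPKM, Ddx58 (RIG-I) 4.96 RPKM and Dhx58 (LGP2) 4.57 RPKM. The spread of these 3 sensors over the wild-type livers overlapped fully.

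The ADP-ribosylation group ran from 12.0 RPKM for Parp9 to 2.32 RPKM for Parp14, with Parp12 at 9.14 RPKM and Dtx3l, the ubiquitin ligase that pairs with Parp9, at 7.28 RPKM. The ligase Trim25, which modifies RIG-I, averaged 8.84 RPKM, while Trim30a and the antibody receptor Trim21 averaged 1.67 and 1.42 RPKM. Of the cap-binding and related Ifit proteins, Ifit3 averaged 7.28 RPKM, Ifit1 3.80 RPKM and Ifit3b 1.60 RPKM. The kinase Eif2ak2 (PKR), which halts translation on double-stranded RNA, averaged 2.11 RPKM. Rtp4, a chaperone of surface receptors, averaged 7.45 RPKM.

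The oligoadenylate synthetase family ran from 7.56 to 0.185 RPKM and held the 4 lowest genes. Oasl1, which represses translation of Irf7 mRNA, averaged 7.56 RPKM, Oas1a 2.37 RPKM and Oasl2 1.79 RPKM in wild-type livers. Oas1g averaged 0.675 RPKM, Oas3 0.296 RPKM, Oas2 0.241 RPKM and Oas1b 0.185 RPKM. Oas1b, annotated as a polymorphic pseudogene, had 0 counts in 4 of 18 libraries and Oas2 in 1. In the remaining genes, the Z-nucleic acid sensor Zbp1 averaged 4.66 RPKM, the nuclear helicase Helz2 3.18 RPKM, the RNA editing enzyme Adar 2.56 RPKM, the apoptosis factor Xaf1 2.50 RPKM and the radical enzyme Rsad2 (viperin) 2.45 RPKM. The nuclear body protein Sp100 averaged 2.32 RPKM, the antiviral factor Samd9l 2.27 RPKM, the nucleotide kinase Cmpk2 1.81 RPKM, Ifi44 1.56 RPKM and Epsti1 1.52 RPKM.

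**Figure D2:**
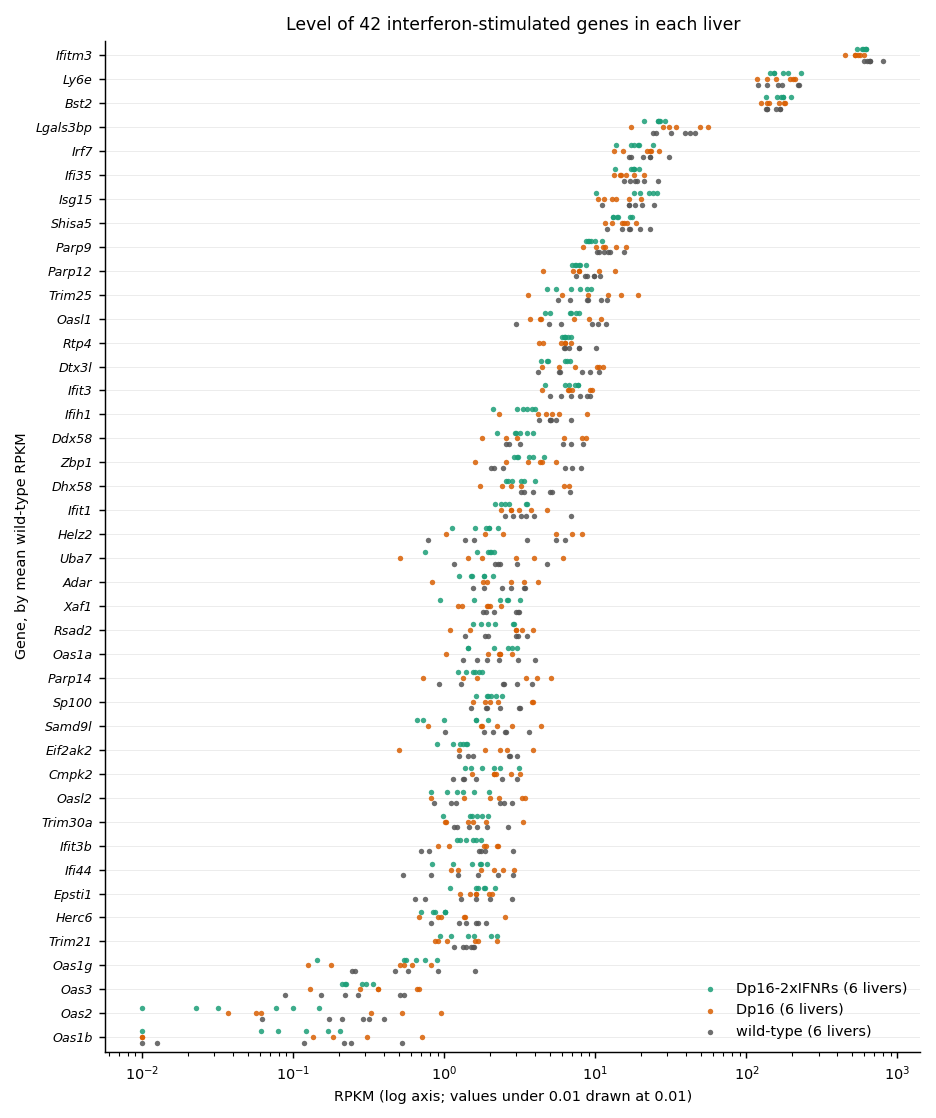
RPKM of each of the 42 genes in every liver (log axis, 1 point per liver, 6 livers a group), ordered by the wild-type mean. Ifitm3, Ly6e and Bst2 form the top, from 667 to 149 RPKM in wild-type livers, and for Ifih1 the Dp16-2xIFNRs points, 2.09 to 3.98 RPKM, lie below the wild-type points, 4.21 to 6.85 RPKM.

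In Dp16 livers against wild-type livers, no interferon-stimulated gene of the 42 passed the threshold (edgeR quasi-likelihood test, p under 0.05 after Benjamini-Hochberg adjustment over 15208 genes), where 0.0395% of all genes did. DESeq2 and limma-voom also called 0 of the 42. At an unadjusted p under 0.05, 2 genes lay lower and 0 higher in Dp16 livers, against 2.35% and 2.52% of all genes. The log2 fold change was above 0 in 13 genes and below 0 in 29, where 51.4% and 48.6% of all genes fell on these sides. The median was -0.119, beside 0.00997 over all genes tested. No gene of the 42 had groups that did not overlap, where 0.0789% of all genes lay wholly lower and 0.138% wholly higher in Dp16 livers. Fewer cells of a type and less RNA per cell cannot be told apart in bulk tissue.

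Of genes averaging at least 1 on the log2 CPM scale, the lowest by fold change was Xaf1, which counters the apoptosis inhibitor XIAP. Xaf1 had a lowest, median and highest value of 3.05, 4.24 and 7.64 CPM (counts relative to library size, adjusted by TMM factors) in Dp16 livers, against 4.54, 6.68 and 8.42 CPM in wild-type livers. The groups overlapped, with a log2 fold change of -0.50 (SE 0.295, unadjusted p = 0.109). Rtp4 had 7.83, 10.5 and 15.3 CPM in Dp16 livers, against 12.6, 13.5 and 19.1 CPM in wild-type livers. All but Dp16 liver 4 lay below the lowest wild-type liver for Rtp4, with a log2 fold change of -0.43 (SE 0.165, unadjusted p = 0.0178, edgeR adjusted p = 0.831).

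Ifitm3 had 226, 347 and 504 CPM in Dp16 livers, against 396, 447 and 533 CPM in wild-type livers. Dp16 livers 1, 3, 5 and 6 lay below every wild-type liver for this gene and Dp16 liver 4 above all but the highest. The log2 fold change of Ifitm3 was -0.36 (SE 0.154, unadjusted p = 0.0313, edgeR adjusted p = 0.936). The RNA sensor Dhx58 had 5.19, 6.87 and 13.4 CPM in Dp16 livers and 8.52, 10.4 and 14.8 CPM in wild-type livers, with a log2 fold change of -0.41 (unadjusted p = 0.0837). At the other end, Helz2, Ifi44, Cmpk2 and Oasl2 had log2 fold changes of 0.34, 0.33, 0.33 and 0.23. Helz2 had 13.1, 37.3 and 68.1 CPM in Dp16 livers and 8.77, 25.5 and 62.4 CPM in wild-type livers, so the groups covered nearly the same range (SE 0.450, unadjusted p = 0.455).

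By role, all 3 RNA sensors and all 3 genes of the ISG15 system had a fold change below 0 in Dp16 livers, as did Zbp1, Xaf1 and Shisa5, and none of these 9 passed the test. The other roles were split, with 2 of 7 oligoadenylate synthetases, 3 of 6 nucleotide and membrane effectors and 2 of 4 ADP-ribosylation genes above 0.

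In Dp16-2xIFNRs livers against wild-type livers, edgeR again called 0 of the 42 genes, where 0.0986% of all genes were called. DESeq2 called 1, Ifih1 (adjusted p = 0.0276), and limma-voom called 0. At an unadjusted p under 0.05, 8 genes lay lower and 0 higher in Dp16-2xIFNRs livers, against 5.23% and 3.43% of all genes. The 8 were Oas2, Samd9l, Eif2ak2, Ifih1, Herc6, Adar, Dhx58 and Parp9. The fold change was above 0 in 12 genes and below 0 in 30, where 47.4% and 52.6% of all genes fell on these sides, and the median was -0.158 beside -0.0247 over all genes. Cell type markers lay on both sides in the same comparison. All 8 Kupffer cell markers had fold changes below 0 (median -0.225), with summed levels of 219 to 296 CPM in Dp16-2xIFNRs livers and 223 to 511 CPM in wild-type livers. All 7 monocyte and neutrophil markers were above 0 (median 0.445), with sums of 16.5 to 30.2 CPM in Dp16-2xIFNRs livers and 6.44 to 25.1 CPM in wild-type livers. None of these 15 markers passed the adjusted threshold, and the sums overlapped. Of other cell types, all 6 B and plasma cell markers (median 0.869) and 6 of 8 tested T and NK cell markers (median 0.612) lay above 0. The 2 tested plasmacytoid dendritic cell markers lay below 0 (median -1.28). Medians were 0.145 for hepatocyte, 0.164 for stellate cell and -0.027 for sinusoidal endothelium markers. None of these was called either, and the part of any cell type in the values of the 42 genes was not tested.

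Ifih1, whose product MDA5 binds long double-stranded RNA, is, with Ifitm3, a gene printed above with a core after the start (gene body of Ifih1 GRCm38 chr2:62595798-62646255, minus strand). Ifih1 had 12.0, 18.5, 18.9, 19.1, 21.6 and 22.6 CPM in the 6 Dp16-2xIFNRs livers, against 24.9, 26.7, 27.0, 29.2, 29.9 and 33.8 CPM in the 6 wild-type livers. Every Dp16-2xIFNRs liver lay below every wild-type liver, and Ifih1 was the only gene of the 42 whose groups did not overlap, where 0.375% of all genes lay wholly lower and 0.48% wholly higher in Dp16-2xIFNRs livers. Its log2 fold change was -0.62 (SE 0.159, unadjusted p = 0.000994, edgeR adjusted p = 0.183). When each library was left out in turn, the edgeR adjusted p of Ifih1 ran from 0.0664 to 0.463.

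Samd9l, a cytosolic factor that restrains poxviruses and cell growth, had 3.65, 7.25 and 10.4 CPM in Dp16-2xIFNRs livers, against 5.83, 12.0 and 17.4 CPM in wild-type livers. The groups overlapped through the lowest wild-type liver, a male, and the log2 fold change was -0.84 (SE 0.242, unadjusted p = 0.00266, edgeR adjusted p = 0.264). Eif2ak2 had 4.06, 5.79 and 6.19 CPM in Dp16-2xIFNRs livers, against 5.81, 9.03 and 11.7 CPM in wild-type livers. The ranges overlapped, since 3 wild-type livers had 5.81 to 6.79 CPM while the other 3 had 11.3 to 11.7 CPM, and the log2 fold change was -0.70 (SE 0.283, unadjusted p = 0.0232).

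Herc6 had 3.47, 4.63 and 5.06 CPM in Dp16-2xIFNRs livers, against 4.22, 7.40 and 8.16 CPM in wild-type livers, where only wild-type liver 5 came within the range of Dp16-2xIFNRs livers. This gave a log2 fold change of -0.57 (SE 0.188, unadjusted p = 0.00679). Adar had 7.88, 10.8 and 12.5 CPM in Dp16-2xIFNRs livers and 10.2, 15.1 and 19.98 CPM in wild-type livers, a log2 fold change of -0.54 (unadjusted p = 0.0329). Dhx58 had 6.57, 7.32 and 9.98 CPM in Dp16-2xIFNRs livers and 8.52, 10.4 and 14.8 CPM in wild-type livers, a log2 fold change of -0.49 (unadjusted p = 0.0412). All 3 genes overlapped between the groups.

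Parp9 had 31.6, 34.1 and 40.4 CPM in Dp16-2xIFNRs livers, against 39.2, 41.4 and 49.1 CPM in wild-type livers, and 1 Dp16-2xIFNRs liver reached into the wild-type range. Its log2 fold change of -0.26 (SE 0.111, unadjusted p = 0.0284) was the smallest of the 8. Oas2 was near the detection limit, with 0, 0.223 and 0.606 CPM in Dp16-2xIFNRs livers, against 0.268, 1.00 and 1.43 CPM in wild-type livers. The fitted log2 fold change was -2.01 (SE 0.734, unadjusted p = 0.0130), and the groups overlapped through 1 wild-type liver. Reads of Parp9 and Dtx3l, whose ends overlap on opposite strands, could be shared where counting ignored strand, and no source used here gives the strand setting.

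All 4 ADP-ribosylation genes, all 3 RNA sensors, all 4 nuclear genes (Irf7, Sp100, Helz2, Adar) and Zbp1, Xaf1 and Shisa5 had fold changes below 0. The highest fold changes were Epsti1 at 0.27, Cmpk2 at 0.24, Bst2 at 0.23 and Isg15 at 0.22, with unadjusted p-values of 0.41, 0.342, 0.216 and 0.433. Bst2 had 111, 140 and 163 CPM in Dp16-2xIFNRs livers and 97.2, 117 and 144 CPM in wild-type livers. Isg15 had 7.34, 15.3 and 19.0 CPM in Dp16-2xIFNRs livers and 7.56, 12.2 and 18.8 CPM in wild-type livers. Both genes have short transcripts and several response element cores in the printed windows, and the groups overlapped for both, for Isg15 over nearly the whole range.

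In Dp16-2xIFNRs livers against Dp16 livers, edgeR and limma-voom called 0 of the 42 genes and edgeR called 0% of all genes. DESeq2 called 0 of the 42. At an unadjusted p under 0.05, 5 genes lay lower and 0 higher in Dp16-2xIFNRs livers, against 7.11% and 2.21% of all genes. The fold change was above 0 in 17 genes and below 0 in 25, where 48.1% and 51.9% of all genes fell on these sides, and the median was -0.0834 beside -0.0222. All 8 Kupffer cell markers lay below 0 (median -0.0932) and all 7 monocyte and neutrophil markers above 0 (median 0.378) here too. Of B and plasma cell markers, 5 of 6 lay above 0 (median 0.741), and the 2 tested plasmacytoid dendritic cell markers lay below 0 (median -1.28). None of these markers was called. No gene of the 42 had groups that did not overlap, where 0.105% of all genes lay wholly lower and 0.0526% wholly higher. This comparison shares the Dp16-2xIFNRs livers with the one against wild-type livers and the Dp16 livers with the first, so the 3 sets of values are not independent.

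Helz2, a helicase that binds nuclear receptors, had 12.1, 20.4 and 22.9 CPM in Dp16-2xIFNRs livers, against 13.1, 37.3 and 68.1 CPM in Dp16 livers. Dp16 livers 1, 3 and 5 had 51 to 68.1 CPM and the others 13.1 to 23.7 CPM, and the log2 fold change was -1.05 (SE 0.451, unadjusted p = 0.0311, edgeR adjusted p = 0.532). The same 3 Dp16 livers were the highest for Parp14, which had 9.54, 11.8 and 14.6 CPM in Dp16-2xIFNRs livers, against 6.64, 18.1 and 28.3 CPM in Dp16 livers (log2 fold change -0.58, unadjusted p = 0.0964). Samd9l had a median of 7.25 CPM in Dp16-2xIFNRs livers and 10.5 CPM in Dp16 livers (log2 fold change -0.72, SE 0.242, unadjusted p = 0.00782). Ifih1 had a median of 19.0 CPM in Dp16-2xIFNRs livers and 25.7 CPM in Dp16 livers (log2 fold change -0.46, SE 0.159, unadjusted p = 0.00933), and the ranges overlapped through Dp16 liver 4 alone.

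Oasl2, a synthetase with ubiquitin-like domains, had 2.81, 4.10 and 6.40 CPM in Dp16-2xIFNRs livers, against 3.15, 6.35 and 9.20 CPM in Dp16 livers (log2 fold change -0.51, SE 0.196, unadjusted p = 0.0171). For Oas2 the log2 fold change was -1.70 (unadjusted p = 0.036). At the upper end stood Isg15, Xaf1, Trim21 and Rtp4, with log2 fold changes of 0.57, 0.39, 0.32 and 0.27. Isg15 had 7.34, 15.3 and 19.0 CPM in Dp16-2xIFNRs livers and 5.44, 9.05 and 17.6 CPM in Dp16 livers (SE 0.279, unadjusted p = 0.0546). Dp16 liver 4 was the highest of its group for Isg15 and liver 5 the lowest, the reverse of their order for Helz2.

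**Figure D3:**
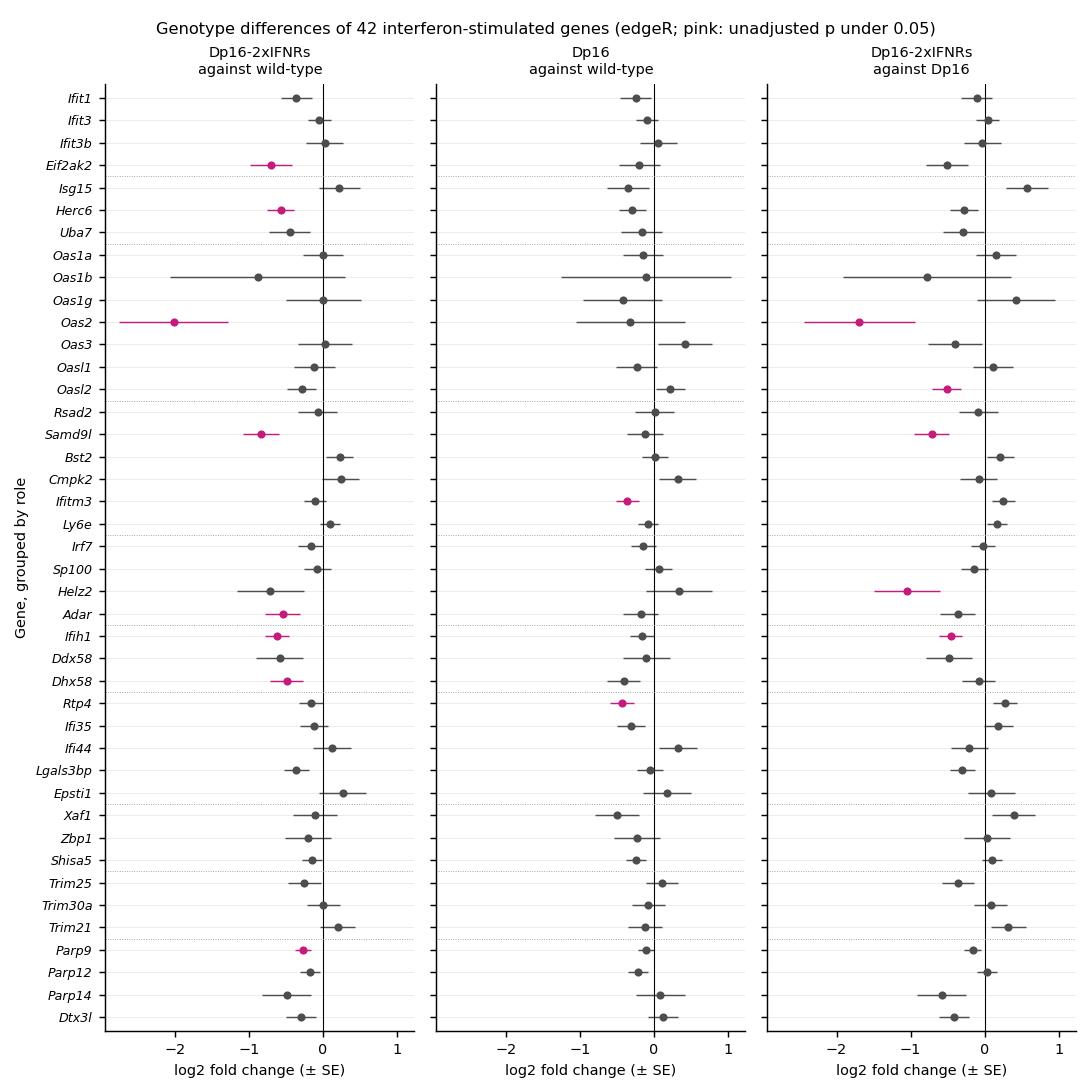
Log2 fold change with its SE for each of the 42 genes, grouped by role, in 3 comparisons (Dp16-2xIFNRs against wild-type, Dp16 against wild-type, Dp16-2xIFNRs against Dp16); pink marks an unadjusted p under 0.05. The pink points number 8, 2 and 5, all to the left of 0, and none passed the adjusted threshold in edgeR.

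That opposite order of long and short transcripts ran through the libraries. The 42 genes were split at their own median length, 2852 bases, into 21 longer and 21 shorter genes. Length here is the value implied by the deposited counts, library totals and RPKM. In Dp16 liver 5 the longer genes exceeded the shorter ones by 0.828 on the log2 scale (deviation from the mean of all livers), beside 0.794 for all genes tested. In Dp16 liver 4 the difference was -0.582 for the 42 genes and -0.732 for all genes. These livers also had the highest and lowest TMM factor, 1.338 and 0.8026.

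In Dp16-2xIFNRs livers against Dp16 livers, the median log2 fold change was -0.363 for the 21 longer genes and 0.112 for the 21 shorter ones, beside -0.221 and 0.18 for all genes of these lengths. Against wild-type livers, the medians for Dp16-2xIFNRs livers were -0.293 for longer and -0.104 for shorter genes, beside -0.155 and 0.115. In Dp16 livers against wild-type livers they were -0.0721 and -0.226, beside 0.07 and -0.0666. Of the 8 genes lower at an unadjusted p under 0.05 in Dp16-2xIFNRs livers than in wild-type livers, 7 were longer genes. All 5 that were lower than in Dp16 livers were longer genes. The 2 genes lower at this level in Dp16 livers than in wild-type livers, Ifitm3 and Rtp4, were shorter genes. RNA quality is not given per library, and its part in this pattern was not tested.

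With a gene length offset for each library, a setting chosen once the data had been seen, edgeR still called 0 of the 42 genes in each genotype comparison. The log2 fold change of Ifih1 in Dp16-2xIFNRs livers against wild-type livers was then -0.45 (unadjusted p = 0.00172, adjusted p = 0.175) and that of Samd9l -0.63 (unadjusted p = 0.00188). For Dp16-2xIFNRs against Dp16 livers, Helz2 was at -0.41 (unadjusted p = 0.137), Ifih1 at -0.19 (unadjusted p = 0.141) and Isg15 at 0.19 (unadjusted p = 0.243). Against wild-type livers, Isg15 and Bst2 of Dp16-2xIFNRs livers turned to the other side of 0, at -0.06 each. For Dp16 against wild-type livers, the offset gave -0.22 for Ifitm3 (unadjusted p = 0.179) and -0.40 for Rtp4 (unadjusted p = 0.0112).

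**Figure D4:**
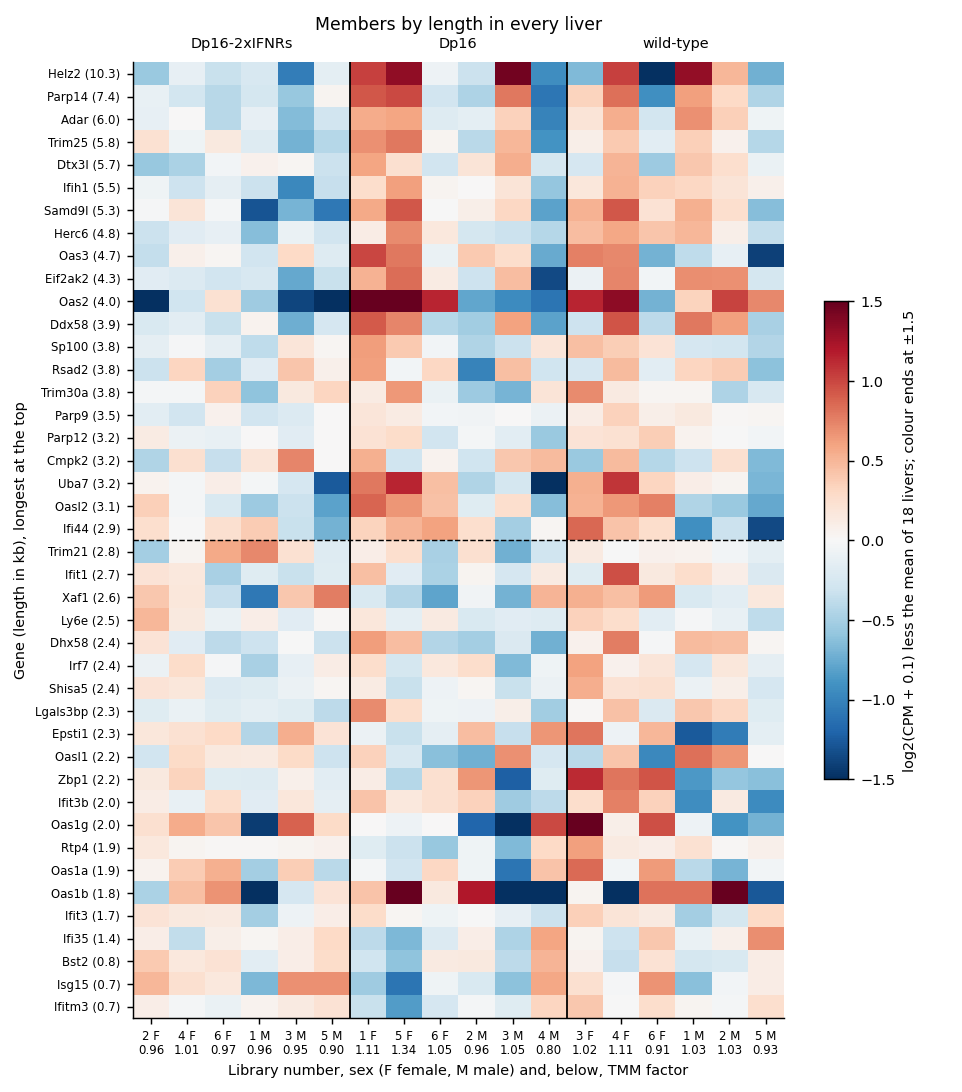
Colour gives log2(CPM + 0.1) of each of the 42 genes less its mean over 18 livers, for every library (columns, by group and sex, TMM factor below) and gene (rows, longest at the top, dashed line at 2852 bases). Above the dashed line, Dp16 libraries 1, 3 and 5 are mostly red and Dp16 library 4 is mostly blue.

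Calls among the 42 genes came from the comparison of the sexes. In female livers against male livers, with genotype as a term, 4 genes rose and none fell (edgeR adjusted p under 0.05), where 3.16% of all genes were called higher and 3.41% lower. They were Oasl2, Uba7, Samd9l and Ifi44, all of them among the 21 longer genes. At an unadjusted p under 0.05, 15 genes lay higher and 0 lower in female livers, against 9.44% and 9.32% of all genes. The fold change was above 0 in 33 genes and below 0 in 9, where 52.4% and 47.6% of all genes fell on these sides, and the median was 0.253 beside 0.0213. By length, the median was 0.31 for the 21 longer and 0.203 for the 21 shorter genes, beside 0.0997 and -0.093 for all genes. Of the 15 genes, 10 were longer ones. With the gene length offset, the edgeR adjusted p-values of the 4 called genes ran from 0.000721 to 0.0315.

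Oasl2 (GRCm38 chr5:114896936-114912234, plus strand) was the only gene of the 42 in which every female liver lay above every male liver within each genotype, where 1.41% of all genes did so. In Dp16-2xIFNRs livers, females had 4.24, 4.86 and 6.40 CPM and males 2.81, 3.38 and 3.95 CPM. In Dp16 livers, females had 6.77, 7.92 and 9.20 CPM and males 3.15, 4.37 and 5.93 CPM. In wild-type livers, females had 7.16, 7.88 and 8.48 CPM and males 2.88, 3.34 and 3.60 CPM. The mean was 6.99 ± 1.63 CPM in female livers and 3.71 ± 0.969 CPM in male livers (SD, n = 9 each), a log2 fold change of 0.90 (SE 0.161, edgeR adjusted p = 0.00104).

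Uba7, the enzyme that activates ISG15, averaged 9.62 ± 3.02 CPM in female livers and 4.94 ± 1.75 CPM in male livers (SD, n = 9 each), a log2 fold change of 0.94 (SE 0.231, edgeR adjusted p = 0.0168). Females had 6.40, 6.78 and 6.99 CPM and males 2.66, 5.48 and 6.42 CPM in Dp16-2xIFNRs livers, so that 1 male reached the lowest female. Females had 8.99, 11.3 and 14.6 CPM and males 2.03, 4.76 and 5.42 CPM in Dp16 livers, with no overlap. Females had 8.19, 9.47 and 13.8 CPM and males 4.02, 6.71 and 6.99 CPM in wild-type livers, again with no overlap.

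Samd9l averaged 12.2 ± 3.44 CPM in female livers and 7.73 ± 3.53 CPM in male livers (SD, n = 9 each), a log2 fold change of 0.71 (SE 0.197, edgeR adjusted p = 0.0346). Females had 8.91, 8.97 and 10.4 CPM and males 3.65, 4.28 and 5.59 CPM in Dp16-2xIFNRs livers. The sexes overlapped in the other genotypes: females had 9.04 to 17.5 CPM and males 5.19 to 11.3 CPM in Dp16 livers, and females had 10.6 to 17.4 CPM and males 5.83 to 13.2 CPM in wild-type livers. Ifi44, an interferon-induced protein of the cytoplasm, averaged 5.86 ± 1.07 CPM in female livers and 3.57 ± 1.36 CPM in male livers (SD, n = 9 each), a log2 fold change of 0.74 (SE 0.212, edgeR adjusted p = 0.0403). Its sexes were apart in wild-type livers, with 5.30 to 8.08 CPM in females and 1.66 to 3.49 CPM in males, and overlapped in Dp16-2xIFNRs livers, with 4.40 to 5.24 CPM in females and 2.66 to 5.75 CPM in males.

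**Figure D5:**
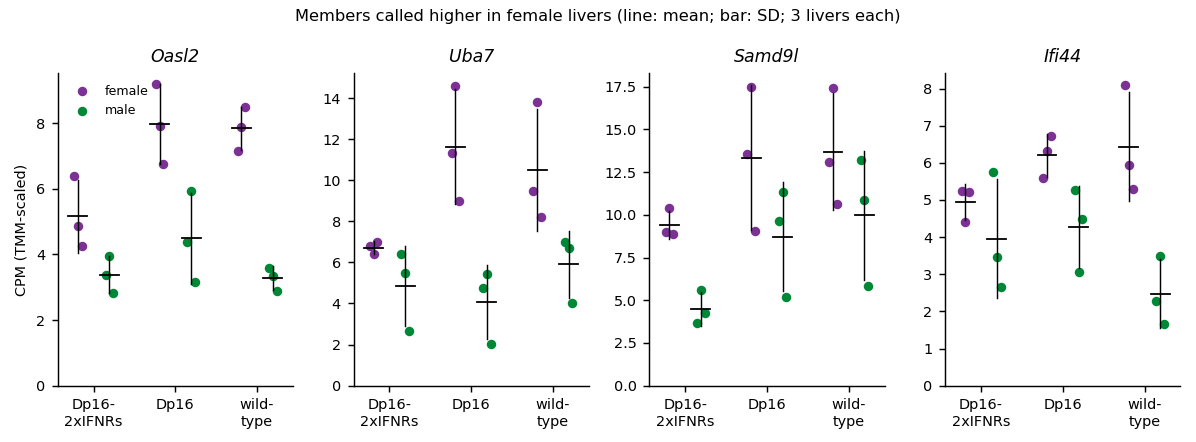
CPM of Oasl2, Uba7, Samd9l and Ifi44 in each female and male liver of the 3 genotypes (points; line for the mean, bar for the SD, 3 livers each). All Oasl2 points of females lie above those of males within each genotype, by mean 6.99 CPM in females and 3.71 CPM in males over all livers.

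Leaving out each library in turn, Oasl2 and Uba7 were called in 18 of 18 fits, Samd9l in 8 and Ifi44 in 6, the largest adjusted p being 0.0741 for Samd9l and 0.078 for Ifi44. With the number in the sample descriptions as a random block in limma-voom, Oasl2 (adjusted p = 0.00315) and Uba7 (0.0127) passed, while Samd9l (0.111) and Ifi44 (0.103) did not. Without that block limma-voom called 4 genes, these 2 included (adjusted p = 0.0378 for Samd9l and 0.0213 for Ifi44). Within single genotypes, fits added after the data were seen with 3 livers per sex, Samd9l passed in Dp16-2xIFNRs livers (edgeR adjusted p = 0.0457) and Oasl2, Uba7 and Ifi44 passed in none. Zbp1, not called over all livers, passed in wild-type livers alone (edgeR adjusted p = 0.0277). The 11 further genes higher at an unadjusted p under 0.05 were led by Oas2 at 1.34, Zbp1 at 0.63, Ifit3b at 0.52, Oas1a at 0.51 and Trim25 at 0.44 on the log2 scale. Trim30a, Herc6, Sp100, Ifih1, Ifit3 and Ly6e followed, from 0.40 to 0.27. The lowest genes were Ifi35 at -0.31, Oasl1 at -0.29, Ifitm3 at -0.17 and Cmpk2 at -0.17, none of which passed. Ifit3 with Ifit3b and Oas1a with Oas1g are paralogs, and reads shared within a pair could be split by the counting, whose rule for such reads no source used here gives.

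The sum of 8 Kupffer cell markers moved with sex in wild-type livers, with 378 to 511 CPM in females and 223 to 297 CPM in males. It was 270 to 296 CPM in females and 219 to 294 CPM in males of Dp16-2xIFNRs livers, and 233 to 355 CPM in females and 270 to 340 CPM in males of Dp16 livers. All 8 markers, among them Clec4f, Vsig4 and Timd4, were above 0 in every library. Hepatocyte markers summed to 115140 to 125400 CPM in females and 85085 to 98825 CPM in males of wild-type livers. Most of this sum was Alb, with a mean of 75367 CPM in wild-type livers, so it does not stand for the hepatocyte markers as a set. In female livers against male livers over all genotypes, 3 hepatocyte markers lay above 0 and 3 below (median -0.0526). Of these, edgeR called 1 higher and 1 lower. In wild-type livers, stellate cell markers had 200 to 227 CPM in females and 136 to 180 CPM in males. B and plasma cell markers had 8.48 to 20.7 and 2.49 to 4.91 CPM there. Sums for liver sinusoidal endothelium, plasmacytoid dendritic cells, monocytes and neutrophils, and T and NK cells overlapped between the sexes there. The part of any of these cell types in the sex difference was not tested.

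The effect of genotype was also compared between the sexes with an interaction term. No gene of the 42 passed for Dp16-2xIFNRs or for Dp16 against wild-type (edgeR adjusted p under 0.05, 0% of all genes in both), and DESeq2 and limma-voom called 0 of the 42. At an unadjusted p under 0.05, the Dp16-2xIFNRs effect was higher in females than in males for 0 genes and lower for 4, against 1.07% and 1.17% of all genes. The Dp16 effect was higher for 1 gene and lower for 3, against 3.18% and 4.69% of all genes.

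Zbp1, which triggers necroptosis on Z-form nucleic acids, was lower in both terms. Its females had 6.85, 8.65 and 9.83 CPM and males 6.80, 6.94 and 8.23 CPM in Dp16-2xIFNRs livers, and its females had 5.76, 8.39 and 9.17 CPM and males 3.27, 6.86 and 12.4 CPM in Dp16 livers. In wild-type livers its females had 13.6, 15.0 and 17.0 CPM and its males 4.23, 4.99 and 5.17 CPM. The sexes were thus apart in wild-type livers and overlapped in the others, with interaction terms of -1.46 for Dp16-2xIFNRs (unadjusted p = 0.00813) and -1.61 for Dp16 (SE 0.488, unadjusted p = 0.00414). Epsti1 had terms of -1.16 (unadjusted p = 0.0394) and -1.75 (SE 0.520, unadjusted p = 0.00371). Each term draws on both sexes of the genotypes compared, and for Zbp1 every wild-type male also lay below every Dp16-2xIFNRs male. Such orders rest on 3 livers per sex and genotype, and the share of all genes with them is not given here. The wild-type females had the highest Kupffer cell sums, and the part of that difference was not tested.

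Ifitm3 had an interaction term of -0.64 for Dp16 (unadjusted p = 0.0367), with 226 to 339 CPM in females and 354 to 504 CPM in males of Dp16 livers, against 403 to 533 CPM in females and 396 to 479 CPM in males of wild-type livers. Every Dp16 female lay below every wild-type female, while the males overlapped. For Oas2 the term was 3.04 (unadjusted p = 0.0311), with 1.23, 1.87 and 2.81 CPM in females and 0.182, 0.213 and 0.25 CPM in males of Dp16 livers. Ifi44 and Sp100 had terms of -1.05 (unadjusted p = 0.0386) and -0.73 (unadjusted p = 0.0440) for Dp16-2xIFNRs.

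The genes that act before the 42 in the pathway were read from the same fit. All 20 type I and type III interferon genes had 0 counts in all 18 libraries, among totals of 38236222 to 59923315 counts per library. Of the receptor genes, Ifnar1, Ifnar2 and Il10rb lie in the duplicated interval, and none of them was called in a genotype comparison. Ifnar1 had 26.0, 31.7 and 42.4 CPM in Dp16 livers, against 19.7, 21.7 and 25.5 CPM in wild-type livers, with no overlap between the groups (log2 fold change 0.58, SE 0.147, unadjusted p = 0.000841, edgeR adjusted p = 0.280). In Dp16-2xIFNRs livers it had 18.3, 23.5 and 26.9 CPM, a log2 fold change of 0.05 against wild-type livers.

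Ifnar2 and Il10rb had log2 fold changes of 0.52 (SE 0.127, adjusted p = 0.246) and 0.75 (SE 0.212, adjusted p = 0.397) in Dp16 livers against wild-type livers, and of 0.15 and 0.16 in Dp16-2xIFNRs livers. Ifnlr1, the receptor chain for interferon lambda, did not pass the count filter. Of the signal transducers, Jak1, Tyk2, Stat2 and Irf9 are described here, and none of these was called in any genotype comparison. In Dp16 livers against wild-type livers Irf9 had a log2 fold change of -0.25, Tyk2 -0.12, Jak1 0.09 and Stat2 0.23. In Dp16-2xIFNRs livers against wild-type livers these genes lay below 0, with Tyk2 at -0.55 (unadjusted p = 0.0438).

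The feedback inhibitor Usp18, which detaches ISG15 and blocks Ifnar2, had a log2 fold change of -0.30 in Dp16 livers and -0.38 in Dp16-2xIFNRs livers against wild-type livers (unadjusted p = 0.0421 for Dp16-2xIFNRs). Socs1, Socs3, Pias1, Ptpn6 and Ptpn11 lay between 0.01 and 0.72 in Dp16 livers against wild-type livers, and none was called. In female livers against male livers, Usp18 was at 0.42 (adjusted p = 0.0963) and Tyk2 at 0.36, and neither passed the test that Oasl2, Uba7, Samd9l and Ifi44 passed.

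Library by library, the number of the 42 genes above the mean of all livers of the same sex ran from 8 in Dp16 liver 6 to 32 in wild-type liver 4. It was 11 to 26 in Dp16-2xIFNRs livers, 8 to 29 in Dp16 livers and 15 to 32 in wild-type livers, so the 3 groups overlapped. Of all genes tested, 54.69% lay above that mean in Dp16 liver 6 and 51.97% in wild-type liver 4. Over the 18 livers this share ran from 48.25% to 55.18%. The hepatocyte marker Alb had a median of 36430 RPKM over the 18 livers. Markers of plasmacytoid dendritic cells, a main source of interferon alpha, were at or near 0 for 5 of 6 genes: Pacsin1 had 0 counts in 9 of 18 libraries, Cox6a2 in 8, Klk1 in 6, Ccr9 in 4 and Siglech in 2. The sixth, Ly6d, had 0 counts in 0 libraries and a median of 2.57 CPM. Siglech had 0 to 0.234 CPM in Dp16-2xIFNRs livers, 0.152 to 1.25 CPM in Dp16 livers and 0.273 to 0.731 CPM in wild-type livers. For it, Dp16-2xIFNRs and wild-type livers did not overlap (log2 fold change -2.44, edgeR adjusted p = 0.471), where 0.375% of all genes lay wholly lower. By mean CPM, Ccr9, Klk1 and Ly6d were also lower in Dp16-2xIFNRs than in wild-type livers. Cox6a2 (0.221 against 0.0996 CPM) and Pacsin1 (0.113 against 0.0966 CPM) were higher. The 6 genes summed to 1.75 to 5.59 CPM in Dp16-2xIFNRs livers, 1.34 to 7.91 CPM in Dp16 livers and 2.06 to 8.12 CPM in wild-type livers. Markers of B and plasma cells summed to 15.2 to 56.1 CPM in Dp16-2xIFNRs livers, 4.83 to 37.1 CPM in Dp16 livers and 2.49 to 20.7 CPM in wild-type livers, and their part in the genotype values was not tested.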

How the data were processed

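Polyadenylated RNA from 18 mouse livers (6 Dp16-2xIFNRs, 6 Dp16, 6 wild-type) was extracted with TRIzol and sequenced as strand-specific paired-end libraries, per the labels' protocols. The deposited table of counts holds whole reads per gene for each library. The deposited RPKM values equal those counts divided by the authors by gene length and library total, as a check on the files showed. GRCm38 is the build in the submitters' processing notes, and HTSeq 0.6.1, HISAT2 2.1.0, SAMtools 1.5, FastQC 0.11.5 and bcl2fastq are their tools. How multi-mapped reads and strand were handled in counting is stated in no source used here.

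Counts were filtered with filterByExpr by group, scaled with TMM and tested with the edgeR 4.0.16 quasi-likelihood test (robust, in R 4.3.3) on a model of genotype plus sex over all 18 libraries, leaving 14 residual degrees of freedom. The median biological coefficient of variation was 0.351. P-values were adjusted (Benjamini-Hochberg) over 15208 genes. The sex difference of a genotype effect was an interaction term. The fit was also run on simulated counts with planted fold changes. These held no sex difference and no length pattern between libraries, so they cannot judge the fit where such patterns occur. Coordinates came from GENCODE M21, where 99.56% of identifiers matched, and promoters from RefSeq. Totals were 38236222 to 59923315 counts, and no 2 libraries of 1 group held the same counts.

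The members, the gene lists and the alternatives were chosen with earlier results of these data known. Named genes were those called, those with an unadjusted p under 0.05, and the 4 highest and 4 lowest by fold change that averaged at least 1 on the log2 CPM scale, with every member given once by its level. Alternatives were DESeq2 1.42.0, limma-voom (limma 3.58.1), DESeq2 size factors, TMM without the duplicated interval, other count filters, no sex term, age as a term, a replicate block, the last number in the sample descriptions as a random block, the 2 groups alone, each sex alone, log2 RPKM with 0.1 or 1 added, each library left out, and the fit without Dp16 livers 4 and 5. A gene length offset and single genotypes were added after the data were seen.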

Additional observations from a re-analysis of the deposited data

Results flagged for a closer look

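A single liver stood apart from the other 5 of its group in 7 of 126 groups of 6 CPM values by Dixon's 95% limit, where chance flags about 1 in 20 groups, or 6.3 here. Eif2ak2 had 4.06 CPM in Dp16-2xIFNRs liver 3, below 5.496 to 6.19 CPM in the others. Dp16-2xIFNRs liver 5 was low for Lgals3bp, with 54.5 CPM against 62.8 to 66.7 CPM, and for Uba7, with 2.66 CPM against 5.48 to 6.99 CPM. Rtp4 had 13.9 CPM in Dp16-2xIFNRs liver 2, above 12.6 to 13.0 CPM in the others. Wild-type liver 4 was high for Ifit1, with 16.4 CPM against 7.19 to 10.0 CPM, and for Parp9, with 49.1 CPM against 39.2 to 42.8 CPM. Rtp4 had 19.1 CPM in wild-type liver 3, above 12.6 to 14.6 CPM in the others.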

How the results depend on the processing

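The medians of the 42 genes kept their sign under every alternative run: -0.178 to -0.0373 for Dp16 against wild-type, -0.321 (females only) to -0.0596 (males only) for Dp16-2xIFNRs against wild-type, -0.253 (females only) to -0.0104 (without Dp16 liver 1) for Dp16-2xIFNRs against Dp16, and 0.11 to 0.385 for females against males. The genotype comparisons called 0 of the 42 genes under every alternative run for them, with 2 exceptions for Dp16-2xIFNRs against wild-type: 1 gene (Ifih1) with DESeq2 and 1 (Ifih1, adjusted p = 0.0488) without Dp16 livers 4 and 5. The interaction terms, run with DESeq2, limma-voom, DESeq2 size factors, a CPM filter and each library left out, called 0.

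For females against males, 4 genes were called, against 2 with the description number as a random block (Samd9l and Ifi44 lost) and 2 without Dp16 livers 4 and 5. Log2 RPKM gave 7 and 8 (0.1 and 1 added), and the gene length offset gave 5, adding Trim25. Single genotypes gave 1 among Dp16-2xIFNRs livers (Samd9l), 0 among Dp16 livers and 1 among wild-type livers (Zbp1, log2 fold change 1.68, edgeR adjusted p = 0.0277). The cause was not tested, though single genotypes hold fewer samples. Leaving out 1 library gave 2 to 5 calls, and 0 to 0 in each genotype comparison. Only 2 genes were called without wild-type livers 4 or 5, Dp16-2xIFNRs livers 2, 3, 5 or 6, or Dp16 liver 5. Samd9l also missed the threshold without Dp16-2xIFNRs livers 1 or 4 or Dp16 liver 1, and Ifi44 without wild-type livers 1, 2 or 3 or Dp16 livers 3 or 6; without Dp16 liver 2, Zbp1 was added (adjusted p = 0.0274).

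The labels do not say that replicate numbers pair the samples. Over 0.1 lay 2, 1 and 3 of 6 pair correlations in the genotype comparisons, with replicate 1 among them each time (0.36, 0.137 and 0.267). The lowest were -0.245, -0.0637 and -0.0911, and these values do not settle whether the samples are paired. With the replicate block the genotype comparisons called 0 of the 42 genes, and 3 were called for females against males (Ifi44 0.80, adjusted p = 0.0679).

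Among genes not called, these turned to the other side of 0. Dp16 against wild-type: Xaf1 0.0719 and Helz2 -0.14 in males, Ifi44 -0.0588 in females. Dp16-2xIFNRs against wild-type: Isg15 -0.0303, Cmpk2 -0.0647 and Epsti1 -0.23 in females, and Isg15 -0.0638 and Bst2 -0.0564 with the gene length offset. Females against males: Sp100 -0.0574 and Oasl1 0.0098 in Dp16-2xIFNRs livers, Ifitm3 0.15 and Cmpk2 0.11 in wild-type livers, and Ifitm3 0.0221 with the gene length offset. Fits by sex, without a sex term or of 2 groups alone do not apply to the sexes. Oas2 and Oas1b, with 0 counts in 1 and 4 libraries, are limited by depth.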

Other observations

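A further list of 40 tested interferon-stimulated genes was fixed with the pathway lists, and edgeR called 0 of them in the genotype comparisons. In female livers against male livers 2 were called higher, where 3.16% of all genes were. These were Gbp3 (log2 fold change 0.95, edgeR adjusted p = 0.0221), a guanylate-binding GTPase, and Slfn8 (1.01, edgeR adjusted p = 0.0483). At an unadjusted p under 0.05, 4 were higher and 6 lower in Dp16-2xIFNRs livers than in wild-type livers, against 3.43% and 5.23% of all genes. In Dp16 livers against wild-type livers, 3 were higher and 3 lower, against 2.52% and 2.35% of all genes. In Dp16-2xIFNRs livers against Dp16 livers, 0 were higher and 4 lower, against 2.21% and 7.11% of all genes. Ifi27, a mitochondrial protein, had 35.4, 46.5 and 59.8 CPM (lowest, median, highest) in Dp16-2xIFNRs livers and 30.8, 42.1 and 80.0 CPM in Dp16 livers, against 48.8, 83.5 and 116 CPM in wild-type livers. Its log2 fold change was -0.88 in both comparisons with wild-type livers, which share those livers (adjusted p = 0.183 for Dp16-2xIFNRs and 0.280 for Dp16). The duplicated interval holds 2 genes of this list, among them Mx2, an antiviral GTPase. Mx2 had 1.60, 2.21 and 2.97 CPM in Dp16-2xIFNRs livers and 1.59, 2.31 and 2.98 CPM in Dp16 livers, against 0.351, 1.13 and 2.05 CPM in wild-type livers. Its log2 fold change was 0.88 for Dp16-2xIFNRs and 0.90 for Dp16 against wild-type livers, and neither passed the test.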
